A study of Mus musculus with 6 samples.

Results

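The Trem2, Tyrobp and Fc receptor signaling genes are 10 genes chosen by symbol among the 32285 genes of the count matrices: Trem2, Tyrobp, Fcer1g, Fcgr1, Fcgr2b, Fcgr3, Fcgr4, Fcrls, Syk and Plcg2. The rule itself uses no measured value. They were described in microglia, border macrophages and neutrophils, which were told apart by marker UMIs (unique molecular identifiers, each counting 1 captured mRNA molecule), and in each library.

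The cells were sorted CNS myeloid cells of 3 male C57BL/6J mice at postnatal day 89. Each whole brain was dissociated by cold Dounce homogenization, a mechanical method without enzyme, and CD45+ CD11b+ cells were sorted. Mouse 2 (DNC-INHIB) was processed with the transcription and translation inhibitors actinomycin D, triptolide and anisomycin, and mice 1 and 3 (DNC-NONE) without them. The cells of each mouse went into a V3.0 and a V3.1 library of the 10X Genomics 3' kit, which gave 6 libraries. All groups shared strain, sex, age, cold dissociation and the sort. The study's staining protocol began with an antibody to CD16/CD32, the proteins of Fcgr3 and Fcgr2b, to block Fc receptors.

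TREM2 is a surface receptor for lipids and apolipoproteins on microglia and other macrophages. It has no signaling tail of its own and signals through the adaptor DAP12, the product of Tyrobp, whose ITAM motif recruits the kinase SYK when phosphorylated. Activating Fc receptors bind IgG and use a second ITAM adaptor, the FcR gamma chain encoded by Fcer1g, while the receptor of Fcgr2b carries an inhibitory motif. SYK acts on phospholipase C gamma 2, encoded by Plcg2, which links both receptor families to calcium signaling.

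The libraries held 6275898 to 18872816 UMIs. Of 29412 barcodes, the V3.0 library of mouse 3 kept only 21.5% after filters on genes, UMIs and mitochondrial reads, against 70.0% to 76.8% in the other 5. Any pair of libraries shared 1 to 14 barcode sequences, at most 0.295% of the smaller library. The gates gave 17644 microglia, 298 neutrophils, 71 monocytes and only 24 border macrophages, the macrophages of the meninges, perivascular space and choroid plexus. There were 2 to 9 border macrophages per library, so their values are far less precise than those of microglia. The microglia of a library had a median of 3388 to 3709 UMIs per cell and the neutrophils 5357 to 6055. Levels below are CPM, the UMIs of a gene per 1000000 UMIs of the class, summed per mouse unless a library is named. Fewer cells with a transcript and fewer transcripts per cell cannot be told apart in such sums.

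By GENCODE on GRCm38, Fcgr2b (chr1:170958617-170976547), Fcgr4 (chr1:171018920-171029761), Fcgr3 (chr1:171051174-171064935) and Fcer1g (chr1:171229572-171234365) lay within 276 kb of each other. Fcrls (chr3:87250758-87263738) and Fcgr1 (chr3:96282909-96293969) were on chromosome 3, Tyrobp at chr7:30413760-30417585, Plcg2 at chr8:117498291-117635142, Syk at chr13:52583173-52648792 and Trem2 at chr17:48346401-48354147. All 10 are protein-coding. Within the last 1000 transcript bases, Fcgr2b and Fcgr3 shared an identical run of 114 bases, and no other pair of the 5 Fc receptor genes shared more than 15. Reads from that run cannot be assigned to 1 gene, so the counts of Fcgr2b and Fcgr3 are uncertain to that extent. An antisense gene with a row of its own, Gm38204, overlaps exons of Fcgr2b.

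Promoters of 4 genes are shown, each as the 250 bases before the RefSeq start on GRCm38.p6, 5′ to 3′ on the strand of the gene. Trem2 (chr17:48346151-48346400, plus strand) and Fcer1g (chr1:171234350-171234599, minus strand) are shown for their contrast between neutrophils and microglia. Fcgr1 (chr3:96293970-96294219, minus strand) and Fcgr4 (chr1:171018676-171018925, plus strand) are shown for their values in interferon-gated microglia.
Trem2: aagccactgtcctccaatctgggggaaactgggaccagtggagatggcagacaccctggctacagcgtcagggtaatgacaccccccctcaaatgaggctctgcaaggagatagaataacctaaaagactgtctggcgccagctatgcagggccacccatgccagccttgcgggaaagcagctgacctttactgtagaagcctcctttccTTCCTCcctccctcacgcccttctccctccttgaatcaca
Fcer1g: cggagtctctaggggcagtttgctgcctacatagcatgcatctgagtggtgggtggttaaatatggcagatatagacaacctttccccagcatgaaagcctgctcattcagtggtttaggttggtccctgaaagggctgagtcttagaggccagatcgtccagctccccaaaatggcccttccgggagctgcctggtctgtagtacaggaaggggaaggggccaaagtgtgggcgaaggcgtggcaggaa
Fcgr1: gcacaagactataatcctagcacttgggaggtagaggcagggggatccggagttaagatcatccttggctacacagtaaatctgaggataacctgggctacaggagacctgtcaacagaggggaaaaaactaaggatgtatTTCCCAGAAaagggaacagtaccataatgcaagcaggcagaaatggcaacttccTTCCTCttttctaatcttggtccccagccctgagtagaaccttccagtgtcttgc
Fcgr4: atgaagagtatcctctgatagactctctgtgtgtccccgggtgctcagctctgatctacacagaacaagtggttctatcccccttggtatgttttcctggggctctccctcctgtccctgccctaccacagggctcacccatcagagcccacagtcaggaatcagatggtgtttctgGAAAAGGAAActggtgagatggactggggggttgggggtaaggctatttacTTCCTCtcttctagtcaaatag
Capitals mark 3 motifs searched on both strands: the core GAGGAA of PU.1, a factor of the myeloid lineage; TTCNNNGAA, the gamma-interferon activated site; and the core of the interferon-stimulated response element, GAAA repeated after any 2 bases. The PU.1 core was in 6 of the 9 genes with a promoter entry (Fcgr1, Fcgr3, Fcgr4, Fcrls, Syk and Trem2) and in 23.3% of all 32851 promoter entries. The gamma-interferon activated site was in that of Fcgr1 and in 7.02% of all entries. The interferon-stimulated response element core was in that of Fcgr4 and in 2.98% of all. None of the motifs overlapped another in the windows shown. A match says only that these letters are there.

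Microglia held high levels of the receptor, both adaptors and Fcrls. Trem2 was at 2511, 2411 and 2467 CPM in mice 1 to 3 (2463 ± 49.9, SD, n = 3). Tyrobp was at 2747 ± 34.1, Fcer1g at 2534 ± 44.2 and Fcrls, an Fc receptor-like gene known as a microglial marker, at 1642 ± 102. Among the Fc gamma receptors, Fcgr3 was at 911 ± 53.4, the high-affinity receptor gene Fcgr1 at 371 ± 10.8, the inhibitory Fcgr2b at 247 ± 8.61 and Fcgr4 at 15.7 ± 1.14. Syk was at 101 ± 2.81 and Plcg2 at 77.8 ± 5.91.

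At a depth of 2000 UMIs per cell, 98.5% of microglia had a Trem2 UMI, 98.7% a Tyrobp UMI and 98.5% an Fcer1g UMI, against 50.8% for Fcgr1, 36.9% for Fcgr2b, 17.9% for Syk and 2.99% for Fcgr4. Without thinning the shares were 99.6% for Trem2, 69.5% for Fcgr1 and 4.92% for Fcgr4. The variance of the thinned count between cells divided by its mean, which is 1 under random sampling alone, was 1.32 to 1.38 for Trem2 over the 6 libraries and 0.964 to 1.06 for Syk. It was highest for Fcrls, at 1.69 to 1.93.

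**Figure D1:**
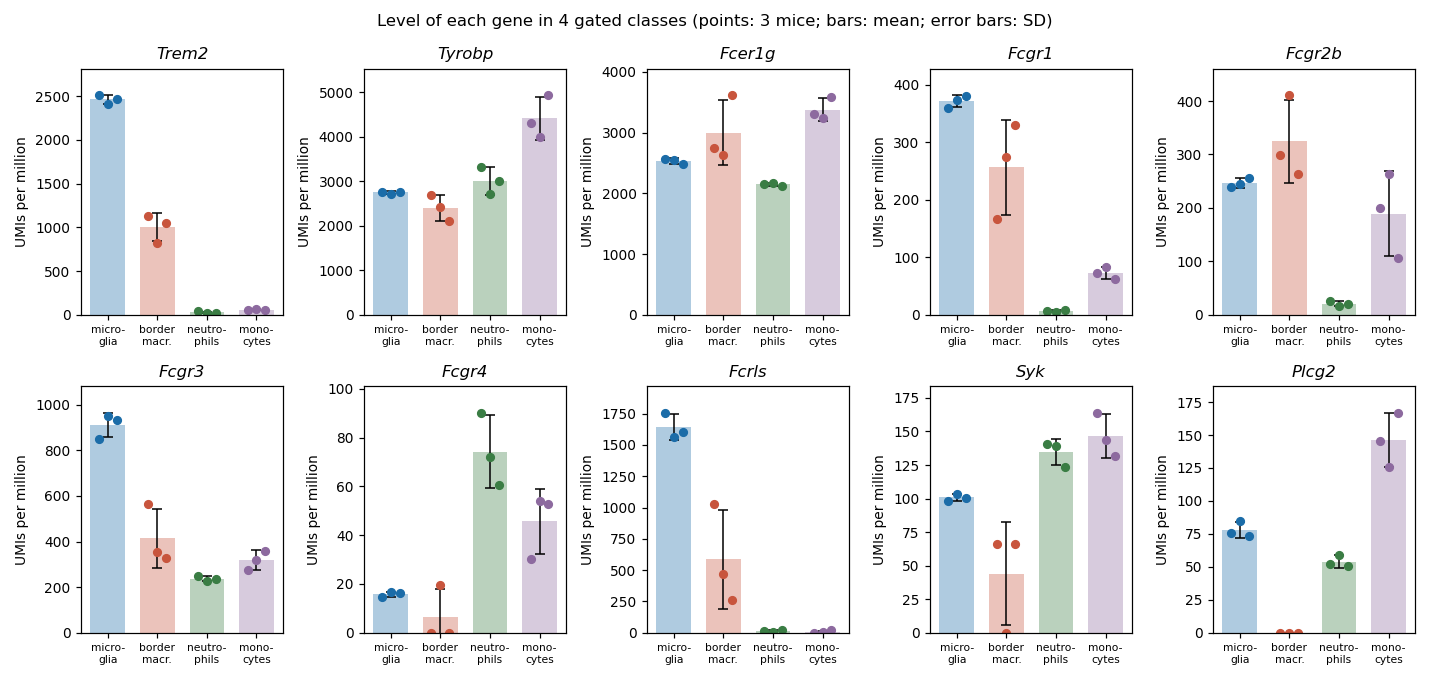
CPM of each of the 10 genes in microglia, border macrophages, neutrophils and monocytes (points, 3 mice; bars, mean; error bars, SD). Trem2 and Fcrls stood high in microglia, intermediate in border macrophages and near 0 in neutrophils, whereas Tyrobp and Fcer1g were above 2000 in all 4 classes.

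The next comparison asked how border macrophages, which also carry the TREM2 system, differ from microglia. Trem2 was lower in border macrophages, at 1128, 823 and 1053 CPM in mice 1 to 3, below each of the 3 microglial values. The difference was -1.40 ± 0.24 on the log2 scale (SE, edgeR quasi-likelihood test, adjusted p = 2.1e-07). Fcrls was at 1028, 470 and 263, a log2 difference of -1.47 ± 0.26 (adjusted p = 3.8e-07). Its 3 values were widely spread yet all below the microglial range. The SE and p rest on a spread that the fit shares over genes, so they do not measure that spread between mice. Fcgr3 was at 564, 353 and 329, also below the microglial range (log2 difference -1.16 ± 0.28, adjusted p = 0.00097).

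The adaptors did not pass the test with this gate. Tyrobp was at 2407 ± 291 in border macrophages and its log2 difference was -0.24, with a 95% interval of -0.69 to 0.21 (adjusted p = 0.65). Fcer1g was at 2999 ± 541 (log2 difference 0.12, interval -0.31 to 0.56, adjusted p = 0.84). Fcgr1 (256 ± 83.0), Fcgr2b (324 ± 77.4), Fcgr4 (6.53 ± 11.3) and Syk (66.3, 0 and 65.8, 3 UMIs in all) did not pass the test either. Plcg2 had no UMI in the 24 cells, so a share of cells with a UMI as high as 12.5% cannot be told from 0, and its level was at least 2.52-fold lower than in microglia against a limit of 3 counts over the group. Thus 4 of the 10 genes were called lower and 0 higher, where 8.59% of the 7850 genes tested were called in either direction and 4.71% were called lower. The call required an adjusted p below 0.05 and a log2 difference beyond 0.58.

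A broader gate, set after seeing the data, kept 83 cells by requiring 2 border macrophage genes and allowing up to 4 microglial genes. There Trem2 was at 1039 ± 31.7 and Fcrls at 713 ± 304, and both stayed called lower. Fcgr3 (log2 difference -0.48) and Plcg2 (-0.63, adjusted p = 0.31) lost the call. Fcer1g (0.63, adjusted p = 0.0022), Fcgr2b (0.61, adjusted p = 0.0090) and Fcgr4 (2.35, adjusted p = 7.2e-07) were called higher. Fcgr4 was at 62.9 ± 13.1 CPM in the 83 cells, against 6.53 ± 11.3 with the narrow gate and 45.7 ± 13.3 in monocytes. Whether the broader gate also took in mixed barcodes or other myeloid cells was not tested. The Trem2 and Fcrls differences thus did not rest on the narrow gate, whereas the calls of Fcgr3, Plcg2, Fcer1g, Fcgr2b and Fcgr4 changed with it. With the narrow gate, the Plcg2 call was also lost without mouse 1 (adjusted p = 0.080) or mouse 2 (adjusted p = 0.15).

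Neutrophils held the adaptors and the kinase and little of the receptor. Trem2 was at 38.1, 24.0 and 20.3 CPM in mice 1, 2 and 3, which was 1.52%, 0.996% and 0.822% of the microglial level of the same mouse. The mouse 1 value rested on its V3.0 library, with 24 Trem2 UMIs in 8 of 61 neutrophils (66.8 CPM), against 3 UMIs in the V3.1 library (8.57 CPM). That V3.0 library also held 48 C1qa UMIs in 10 neutrophils, and the V3.1 library 27 in 22.

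The complement genes C1qa, C1qb and C1qc, which neutrophils are not known to make, served as a gauge of free RNA and lay at 0.714% to 1.37% of the microglial level. Trem2 lay above all 3 of them in mice 1 and 2 and below them in mouse 3, from 52 UMIs in all. Fcrls, at 0.642%, 0.512% and 1.14% from 22 UMIs, lay below all 3 in mice 1 and 2 and above them in mouse 3. The part of free RNA in these low levels was not tested. At 2000 UMIs per cell, 5.03% of neutrophils had a Trem2 UMI and 15.8% a C1qa UMI. Without thinning these shares were 10.4% and 34.6%.

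Fcgr1 was at 1.29% to 2.13% of the microglial level from 12 UMIs in all, above the 3 C1q genes in each mouse. Fcgr2b was above them in each mouse, at 6.52% to 10.6%, and Fcgr3 at 23.9% to 29.2%. Fcgr4, which encodes a receptor of neutrophils and monocytes, was higher in neutrophils, at 90.2, 72.0 and 60.8 CPM against 14.4 to 16.6 in microglia, with no overlap. On CPM, Tyrobp was at 3311, 2702 and 2995 in neutrophils, overlapping the microglial range. Fcer1g was at 2116 to 2175, below each microglial value, Syk at 124 to 141, above each, and Plcg2 at 50.7 to 59.2, below each.

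**Figure D2:**
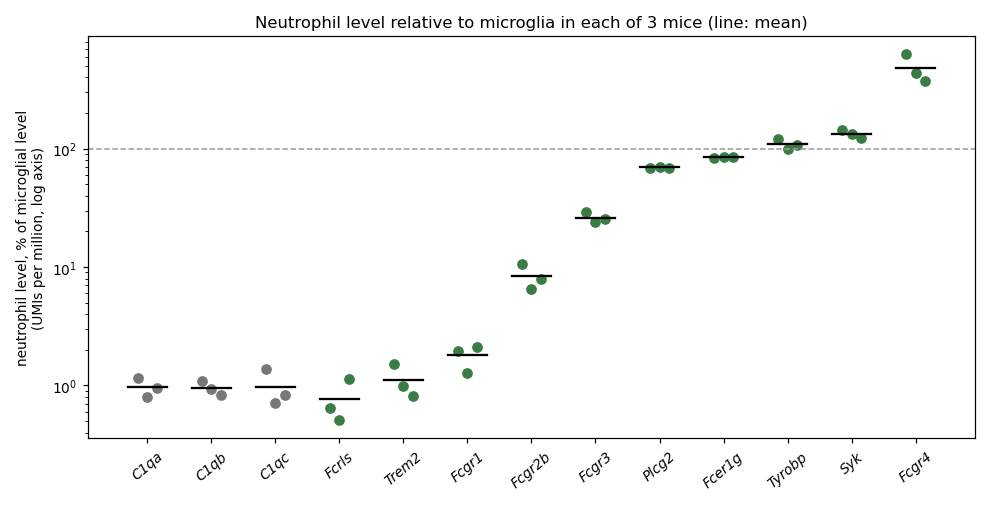
Neutrophil level of each gene as a percentage of the microglial level of the same mouse (log axis; points, 3 mice; lines, mean; dashed line, equal levels; gray, the C1q genes as gauge of free RNA). Fcrls and Trem2 lay near the C1q genes, at 0.512% to 1.52%, whereas Fcgr4 lay above the line of equal levels in each mouse.

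The scale on which the classes are compared decided the direction of several of these genes. The 10 most abundant genes took at least 47.5% of the UMIs of neutrophils and 16.6% to 17.2% of those of microglia. edgeR's TMM factors, which align the bulk of genes between classes, were 0.485 to 0.535 for neutrophils and 1.35 to 1.36 for microglia. With TMM, Tyrobp was higher in neutrophils by 1.53 ± 0.20 on the log2 scale (adjusted p = 2.4e-13), but with library totals alone, a setting added after seeing the data, by only 0.10 (adjusted p = 0.52). Relative to that of microglia, the Fcer1g level turned from 1.16 ± 0.20 (adjusted p = 1.6e-08) to -0.26 (adjusted p = 0.084). Plcg2 turned from 0.87 ± 0.21 (adjusted p = 6.0e-05) to -0.55 (adjusted p = 0.0041). Syk went from 1.82 ± 0.16 (adjusted p = 3.8e-30) to 0.40 (adjusted p = 0.0059), below the fold required for a call.

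The differences of the other genes kept their direction on both scales. Trem2 was lower by -5.06 ± 0.26 with TMM (-4.82 in V3.0 and -5.80 in V3.1 libraries only) and -6.49 with library totals, Fcrls by -5.70 ± 0.28 and -7.13, Fcgr1 by -4.42 ± 0.28 and -5.84, and Fcgr2b by -2.17 ± 0.23 and -3.59. Fcgr4 was higher by 3.65 ± 0.24 and 2.23. Fcgr3 was lower by -0.54 ± 0.18 with TMM (adjusted p = 0.0042), just short of the fold required, and by -1.96 with library totals (adjusted p = 7.3e-38), where it was called. With TMM, 5 of the 10 genes were called higher and 4 lower, where 63.5% of the 7850 genes tested were called (30.3% higher and 33.2% lower). With library totals, 1 was called higher and 5 lower, the median over all genes tested moved by -1.42 on the log2 scale, and 953 genes were called higher and 5739 lower in place of 2379 and 2603. These counts are thus close to a background in which most genes differ between the classes.

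Counted per cell, the neutrophils held 18.5 ± 1.86 Tyrobp UMIs (SD, n = 3 mice) and 13.2 ± 0.33 Fcer1g UMIs, and the microglia 9.92 ± 0.29 and 9.15 ± 0.28. The neutrophils also had more UMIs per cell in all, as given above. Syk was at 0.828 ± 0.031 UMIs per neutrophil and 0.364 ± 0.0039 per microglial cell, and Plcg2 at 0.332 ± 0.024 and 0.281 ± 0.019.

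Neutrophils were also set against border macrophages in the same fit. Trem2 was lower by -3.66 ± 0.33 on the log2 scale, Fcrls by -4.23 ± 0.41, Fcgr1 by -3.82 ± 0.56 and Fcgr2b by -2.66 ± 0.41. Fcgr4 was higher by 4.28 ± 0.92 (adjusted p = 3.7e-05), against 1 UMI in border macrophages, and Syk by 3.54 ± 0.60, against 3. Tyrobp (1.76 ± 0.23) and Fcer1g (1.04 ± 0.22) were higher with TMM, but with library totals Tyrobp was at 0.28 (adjusted p = 0.25) and Fcer1g at -0.46 (adjusted p = 0.033). Plcg2 was at least 1.74-fold higher in neutrophils on CPM. In all, 5 of the 10 genes were called higher and 4 lower, where 28.3% of genes tested were called, 19.8% higher and 8.52% lower. With library totals 3 of the 10 were called higher and 5 lower, and over all genes tested 448 were called higher and 1777 lower in place of 1554 and 669. Fcgr3 was not called (0.62, adjusted p = 0.12), and with library totals its sign turned (-0.83, adjusted p = 0.022). Without mouse 1 the Fcer1g call was lost (0.96, adjusted p = 0.083), and with the broader gate its difference was 0.50 (adjusted p = 0.012), short of the fold required.

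Monocytes (71 cells) were not tested and are given as a description. Trem2 was at 54.6, 68.4 and 52.7 CPM in mice 1, 2 and 3 (58.6 ± 8.55), above the neutrophil range of 20.3 to 38.1 and far below border macrophages. Tyrobp (4411 ± 478) and Plcg2 (146 ± 20.4) were highest in monocytes of the 4 classes, without overlap with any other class. Fcer1g, at 3379 ± 188, overlapped border macrophages, and Syk, at 147 ± 16.2, overlapped neutrophils. Fcgr1 was at 72.4 ± 10.7, between border macrophages and neutrophils, and Fcgr4 at 45.7 ± 13.3, between neutrophils and microglia, in each case without overlap.

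Over the 9 sums of class and mouse, genes whose log2 levels followed Trem2 closely included Lgmn, Hpgds, Mef2a and Serinc3 (Pearson r 0.997 to 0.998 among 7840 genes). Lgmn, which encodes a lysosomal protease, was at 3232 ± 36.6 CPM in microglia, 1356 ± 148 in border macrophages and 25.5 ± 6.56 in neutrophils. For Tyrobp the closest were Atp11b, Mettl9, Sqor, Trpm2 and Atp5md (r 0.895 to 0.905), a looser likeness. The sums of a mouse share libraries, and those of border macrophages rest on 4 to 12 cells.

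The receptors that pair with DAP12 or the FcR gamma chain differed between the classes. Of 22 such genes with a row, which include Csf1r and Itgb2, 19 were tested, and 16 were higher and 3 lower in neutrophils than in microglia. Trem1, an activating receptor of neutrophils, had 78 UMIs in neutrophils and 2 in microglia. Trem3 was at 297 ± 6.25 CPM in neutrophils and 0.655 ± 0.26 in microglia, and Clec4e, which encodes the lectin Mincle, at 161 ± 18.5 and 0.298 ± 0.15. The list's median difference was 8.77 on the log2 scale, or 7.44 on CPM with low counts set at 3, against -0.14 and -1.53 over all genes tested. With library totals 15 were higher and 3 lower. Over all genes tested, 30.3% were called higher and 33.2% lower with TMM, and 953 and 5739 genes with library totals. Genes of this list that neutrophils alone express passed the filter on low counts only through neutrophils, so the count is a description.

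In border macrophages 2 of the 19 were higher and 2 lower than in microglia, where 3.87% of all genes tested were called higher and 4.71% lower. DESeq2 called 8 higher and 2 lower, and 502 and 175 over all genes. Clec4n, the gene of Dectin-2, was called higher, at 110 ± 101 CPM against 0.0264 ± 0.046. It had 8 UMIs in border macrophages and 2 in microglia. Sirpb1c was also called higher, at 110 ± 137 CPM against 0.199 ± 0.21, from 6 and 14 UMIs. Siglech, a DAP12 partner known from microglia, was lower, at 247 ± 75.0 CPM against 1505 ± 157 (log2 difference -2.55 ± 0.31, adjusted p = 1.2e-14). The list's median was -1.51, or 5.63 with low counts set at 3, so that its sign depended on the 9 genes without a UMI in border macrophages. That floor is 31.1 CPM in border macrophages and 0.0472 in microglia, so the 5.63 reflects class size and gives no direction of the list. Against border macrophages, 14 of the 19 were higher and 3 lower in neutrophils, where 19.8% of all genes tested were called higher and 8.52% lower. With library totals 11 were higher and 4 lower, and 448 and 1777 over all genes. Genes without a UMI in border macrophages passed the filter on low counts only through another class, so these counts are a description. Trem3 was at least 9.56-fold higher, Clec4d at least 7.45-fold and Clec4e at least 5.13-fold.

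Among 19 kinases and effectors downstream of ITAM receptors, 9 were higher and 3 lower in neutrophils than in microglia with TMM, but 2 higher and 12 lower with library totals. This is close to the background, in which 63.5% of all genes tested were called with TMM, and 953 were higher and 5739 lower with library totals. The list's median difference with TMM was 0.56, against -0.14 over all genes tested. The SRC-family kinase gene Fgr was higher on both scales, at 150 ± 29.2 CPM against 2.79 ± 0.22, as was Vav3, at 57.9 ± 16.3 against 0.220 ± 0.22. Blnk, an adaptor, was lower, at 3.49 ± 3.24 against 214 ± 4.95. In border macrophages Lyn (283 ± 131 against 669 ± 54.9, log2 difference -1.15 ± 0.31, adjusted p = 0.0039) and Pik3r1 (-1.20 ± 0.39, adjusted p = 0.029) were lower and 17 genes were not called. The list's median there was -0.76 against -0.52 for all genes tested, of which 3.87% were called higher and 4.71% lower. Against border macrophages, 9 were higher and 2 lower in neutrophils with TMM, and 1 and 3 with library totals. Over all genes tested, 19.8% were called higher and 8.52% lower with TMM, and 448 and 1777 genes with library totals. Fgr (5.30 ± 0.76) and Vav3 (3.93 ± 1.07), each with 1 UMI in border macrophages, were higher and Blnk was lower (-3.41 ± 0.86).

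Of 16 inhibitory receptors and phosphatases, 11 were higher and 3 lower in neutrophils than in microglia, and 6 and 5 with library totals, on the same background. The list's median difference with TMM was 1.21. The inhibitory receptor genes Clec12a (271 ± 11.5 against 0.839 ± 0.39 CPM), Lilrb4a (240 ± 6.91 against 2.90 ± 1.09) and Pirb (335 ± 20.5 against 25.8 ± 2.05) were higher. In border macrophages 4 were higher and 4 lower, where 3.87% of all genes tested were called higher and 4.71% lower. Clec12a at 224 ± 140 and Lilrb4a at 343 ± 221 were higher and Cd33, at 145 ± 160 against 497 ± 61.1, was lower. Against border macrophages, 11 were higher in neutrophils and 1 lower, and 3 and 3 with library totals, on the background given for the kinases and effectors. Pilra (4.20 ± 0.54), Cd33 (3.37 ± 0.41) and Pirb (3.11 ± 0.36) were higher, against 3, 9 and 10 UMIs in border macrophages. On CPM, Cd33 was at 66.3, 39.2 and 329 in border macrophages of mice 1 to 3 and at 428, 352 and 332 in neutrophils.

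Of 10 other Fc receptor genes only 2 were tested between classes, and both were lower in neutrophils than in microglia. Over all genes tested, 33.2% were called lower there with TMM, and 5739 genes with library totals. Fcgrt, the neonatal Fc receptor gene, was at 9.01 ± 2.92 CPM against 93.3 ± 0.60, and Fcrl1 at 2.42 ± 2.14 against 31.8 ± 1.70. Neither was called between border macrophages and microglia, and Fcgrt was lower in neutrophils than in border macrophages (-2.83 ± 0.61, adjusted p = 3.1e-05). Of 4 genes for TREM2 ligands and sheddases, 3 were tested. Against microglia, 1 was higher and 1 lower in border macrophages, where 3.87% of all genes tested were called higher and 4.71% lower. In neutrophils 2 were lower than in microglia, on the background given above. Apoe, which encodes a TREM2 ligand, was at 37793 ± 10805 CPM in border macrophages against 379 ± 76.6 in microglia (log2 difference 6.41 ± 0.28, adjusted p = 6.5e-116). Adam10, which encodes a sheddase of TREM2, was lower in border macrophages (-2.57 ± 0.47, adjusted p = 1.9e-06) and in neutrophils (-1.23 ± 0.16, adjusted p = 1.7e-13), and Adam17 was lower in neutrophils (-1.01 ± 0.23, adjusted p = 3.4e-05). Apoe was lower in neutrophils than in border macrophages (-6.02 ± 0.28), where 8.52% of all genes tested were called lower.

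Interferon-gated microglia were set against the other microglia of the same mouse. They were the cells with a UMI of at least 3 of 8 interferon-response genes after thinning to 2000 UMIs: 28, 72 and 41 cells, or 0.514%, 1.07% and 0.872% of microglia, in mice 1, 2 and 3. Fcgr1 was at 1196, 903 and 1293 CPM in the gated cells and at 364, 368 and 378 in the others. It was higher in 3 of 3 mice, without overlap. The log2 difference was 1.503 ± 0.127, a 2.84-fold rise (adjusted p = 1.1e-29), and over 8 alternative settings it was 1.41 to 1.63. The SE and p here also rest on a spread shared over genes.

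Fcrls moved the other way, at 1143, 944 and 671 in the gated cells and 1733, 1555 and 1568 in the others. It was lower in 3 of 3 mice, again without overlap, by -0.90 ± 0.12 on the log2 scale (adjusted p = 3.1e-11). Fcgr4 was at 53.6, 20.8 and 110 against 15.1, 16.5 and 16.6, from 3, 3 and 9 UMIs. Its difference of 1.67 ± 0.53 missed the threshold (adjusted p = 0.075), and without the mouse block it was called (adjusted p = 0.039). Without mouse 3 it was 0.87 (adjusted p = 1.00).

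Trem2 and the adaptors did not pass the test. Trem2 was at 2417 ± 152 in gated and 2463 ± 34.0 in other cells, a log2 difference of -0.11 with a 95% interval of -0.31 to 0.09 (adjusted p = 0.86). Tyrobp (-0.10, interval -0.31 to 0.10) and Fcer1g (-0.09, interval -0.29 to 0.12) did not pass the test. Fcgr3 was lower in 3 of 3 mice, at 696, 722 and 780 against 832, 950 and 932, without passing the test (log2 difference -0.38 ± 0.13, adjusted p = 0.13). Thus 1 of the 10 genes was called higher and 1 lower, where 1.90% of the 10696 genes tested were called, 1.56% higher and 0.337% lower.

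Among the ITAM kinases and effectors, 2 of 18 tested were higher in the gated cells. Among these, Pik3ap1, an adaptor of phosphoinositide 3-kinase, was at 237 ± 35.2 CPM against 99.6 ± 5.93 (log2 difference 1.23 ± 0.22, adjusted p = 1.9e-06). Of the other lists, 0 of 7 partner receptors, 0 of 14 inhibitory receptors and phosphatases, 0 of 3 other Fc receptors and 0 of 3 ligand and sheddase genes were called by edgeR or by DESeq2. Their counts at an unadjusted p below 0.05 with edgeR were 2, 2, 0 and 1, against 957 of all 10696 genes tested. The median differences of these 4 lists ran from -0.40 to -0.12 and that of the kinases and effectors was -0.10, against -0.16 over all genes tested.

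**Figure D3:**
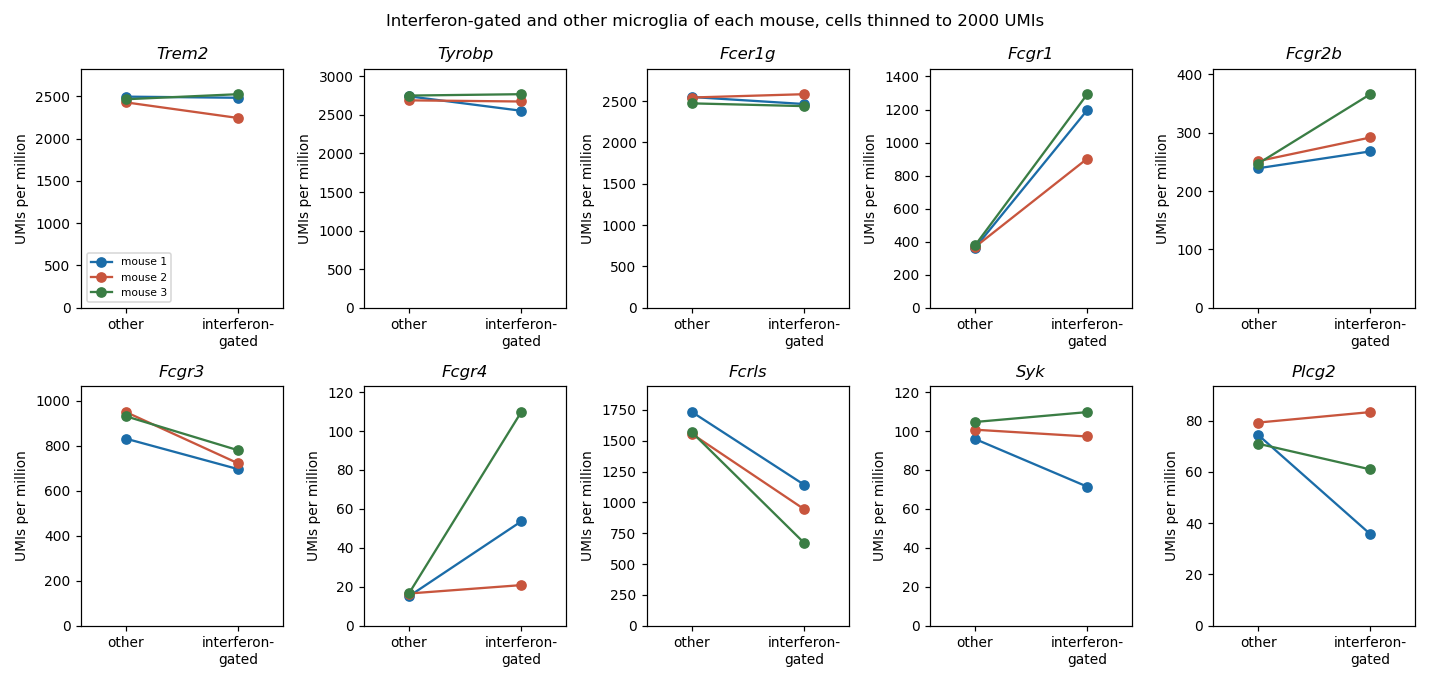
CPM of each gene in interferon-gated and other microglia, cells thinned to 2000 UMIs, with a line for each of the 3 mice. Fcgr1 rose and Fcrls fell in each mouse, while Trem2, Tyrobp and Fcer1g stayed near their level in other microglia.

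Microglia with a UMI of at least 2 of 6 disease-associated marker genes numbered 14, 26 and 12 in the 3 mice, under the 20 cells per mouse required for a test, so their values are given without one. Trem2 was at 3607, 2750 and 2958 CPM in them, against 2493, 2424 and 2464 in the others. Tyrobp was at 3859 ± 293 against 2723 ± 33.3 and Fcer1g at 3329 ± 296 against 2519 ± 43.0, each without overlap between the groups. Fcrls, at 1536, 885 and 1125, was below the others (1551 to 1730).

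Between kit versions, the microglial level of none of these genes differed by the fold required for a call. Fcer1g and Fcgr3 shifted the same way in each mouse. Trem2 was at 2436 ± 120 with V3.0 and 2445 ± 55.1 with V3.1 (SD, n = 3 libraries each), a log2 difference of 0.02 with an interval of -0.12 to 0.16. Fcer1g was at 2438, 2406 and 2297 with V3.0 and at 2729, 2729 and 2523 with V3.1, higher in 3 of 3 mice and without overlap. Fcgr3 was at 952, 1065 and 997 with V3.0 and at 724, 811 and 919 with V3.1, lower in 3 of 3 mice and also without overlap. Tyrobp was at 2578 to 2754 with V3.0 and 2769 to 2886 with V3.1, its ranges just apart.

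By edgeR 0 of the 10 genes were called between kits, where 3.00% of 11923 genes were called, and DESeq2 called 0 as well. At an unadjusted p below 0.05 there were 2 with edgeR, against 3435 of all 11923 genes tested, and 2 with DESeq2. The log2 difference was 0.18 ± 0.06 for Fcer1g (adjusted p = 0.087) and -0.28 ± 0.09 for Fcgr3 (adjusted p = 0.054), both under the fold required. Without mouse 3, whose V3.0 library kept few cells, the difference was 0.19 for Fcer1g and -0.38 for Fcgr3 (adjusted p = 0.045). With the mouse as replicate block the adjusted p was 0.0080 for Fcer1g and 0.00079 for Fcgr3 at nearly the same difference (0.18 and -0.29), and 544 genes in place of 358 were called over the whole table. In the 5 lists of related genes, 1 gene was called, Lilrb4a (1.36 ± 0.39, adjusted p = 0.037), of 15 tested inhibitory receptors and phosphatases. In the other 4 lists 0 of 18, 7, 3 and 3 genes were called by edgeR or DESeq2. Of these, 9, 3, 0 and 1 had an unadjusted edgeR p below 0.05, against 3435 of all 11923 genes tested.

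The last comparison asked whether the inhibitors changed the level of these genes in microglia after cold dissociation. It set 1 mouse against 2, so the treatment and the mouse cannot be told apart. The 2 DNC-NONE mice left 1 residual degree of freedom, and edgeR drew the spread largely from all genes together. The DNC-INHIB mouse was assumed to vary like the DNC-NONE mice. The counts of 0 and the intervals below therefore do not show that the inhibitors left these genes unchanged. Trem2 was at 2411 CPM in the DNC-INHIB mouse and at 2511 and 2467 in the DNC-NONE mice. Tyrobp was at 2707 against 2766 and 2767, and Fcer1g at 2551 against 2567 and 2484. Fcgr3 was at 951, next to 851 and 933, and Plcg2 at 84.5, above 75.7 and 73.3.

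The log2 differences of the 10 genes ran from -0.09 for Fcrls to 0.20 for Plcg2. By edgeR 0 of the 10 were called, with 0 at an unadjusted p below 0.05, where 0.253% of 13065 genes were called. DESeq2 also called 0, with 0 at an unadjusted p below 0.05. The interval was -0.21 to 0.15 for Trem2 and -0.20 to 0.16 for Tyrobp. For Plcg2 it was -0.01 to 0.40. In the 5 lists 18, 14, 16, 3 and 3 genes were tested. Their median log2 differences ran from -0.06 to 0.11, against -0.0059 over all genes tested.

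**Figure D4:**
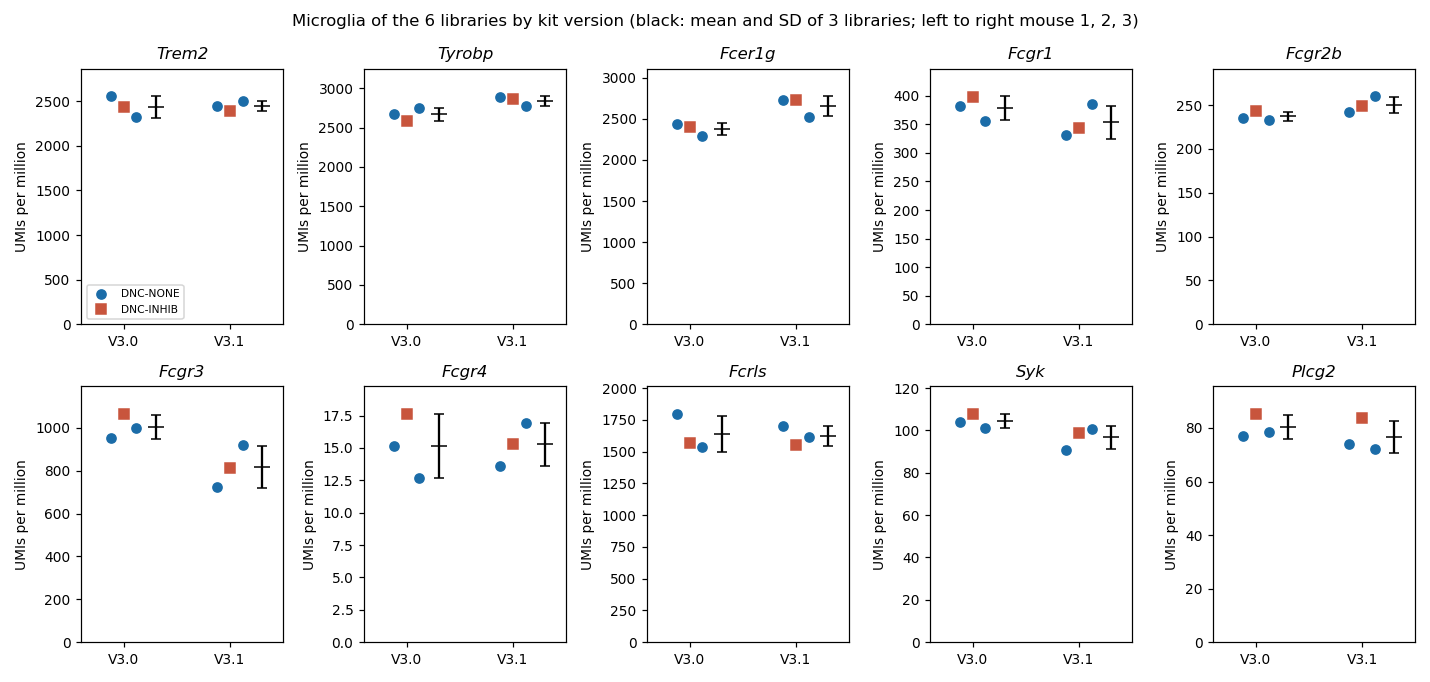
Microglial CPM of each gene in the 6 libraries by kit version (blue circles, DNC-NONE mice; red squares, the DNC-INHIB mouse; black, mean and SD of 3 libraries). Fcgr3 was lower and Fcer1g higher with V3.1 in each mouse.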

How the data were processed

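Cells of 6 libraries from 3 mice were sequenced with the 10X Genomics 3' kits. The authors made count matrices with Cell Ranger 5.0.0 on mm10 (GRCm38), and the deposited files hold raw counts of UMIs for each gene in each barcode. Kept barcodes had between 1000 and 4000 genes, no more than 12000 UMIs, and a mitochondrial share of 15% or less. A class needed a UMI of at least 3 of its marker genes and few of the others' (7 for microglia, 6 for border macrophages, 7 for neutrophils, 6 for monocytes), which left out cells with markers of both. No doublet caller was run. Neurons, glia, endothelium and erythrocytes were gauged by 8 markers, whose summed level was 43.6 to 59.8 CPM in microglia and 37.6 to 75.3 in neutrophils of each library, with Cldn5 at 0 in microglia. In border macrophages it was 0 to 199, with 6 of the 8 genes at 0.

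UMIs were summed per mouse and class (per library for the kits) and tested with edgeR 4.0.16 (R 4.3.3) by the quasi-likelihood test with TMM factors, filterByExpr and Benjamini-Hochberg adjustment over all genes tested. Called means an adjusted p below 0.05 and a log2 difference beyond 0.58. Class and interferon fits held the mouse as a block, and gate genes were left out of counts of calls. The test was tried on simulated data. DESeq2 1.42.0, other scalings, filters, gates and left-out mice were alternatives. Library totals and the broader border macrophage gate were added after seeing the data. Both libraries of a mouse come from 1 animal. After removing the kit means, their log2 levels over the 500 most variable genes correlated at 0.40, 0.52 and 0.16. Libraries of different mice were not correlated for comparison, so the pairing by mouse number was not tested.

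The members and all lists were chosen with earlier results of these data known. All 10 members were named in each comparison, with up to 3 called genes of the largest difference from each list and genes most like Trem2 and Tyrobp, except that some genes this rule names are not reported here. The 95% intervals come from the same fit. SE is the log2 difference divided by the root of the F statistic. edgeR estimates the spread with all genes together, so SE, intervals and p-values do not measure the spread of a single gene between mice. Intervals of shares are exact binomial, and limits use 3 counts, covering counting error only. The kit comparison's p-values set a difference against the spread between libraries of 3 mice, shared over genes in the same way. The promoter of Tyrobp is not shown.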

Additional observations from a re-analysis of the deposited data

How the results depend on the processing

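Of the gene values under the alternatives, 573 kept their direction and side of the threshold, 32 reversed, 12 gained and 13 lost a call. Counts over the whole table moved by over 1.5 times as follows, and the cause was not tested. Between kits, 358 genes were called and 544 with the replicate block, and 152 to 397 with 1 mouse left out. For the inhibitors, 33 became 17 with DESeq2, 81 with RLE factors, 127 without a filter, 92 in V3.0 and 13 in V3.1 libraries only. With 1 DNC-NONE mouse left out no degree of freedom remained, so no test was made. For border macrophages against microglia, 674 became 381 in V3.0 and 439 in V3.1 libraries only, 1507 with the broader gate and 396 to 580 with 1 mouse left out. For neutrophils against microglia, 4982 became 2970 in V3.0 libraries only. For neutrophils against border macrophages, 2223 became 1243 in V3.0 and 1314 in V3.1 libraries only, 3414 with the broader gate and 1335 to 1886 with 1 mouse left out. For interferon-gated microglia, 203 became 107 to 180 with 1 mouse left out.

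Reversed log2 differences were mostly near 0. Between kits, Trem2 was -0.057 and Fcrls -0.031 with at least 500 genes per cell, Fcrls -0.00028 without a filter, and with 1 mouse left out Trem2 ran from -0.025 to 0.056, Fcrls from -0.030 to 0.043 and Fcgr4 from -0.16 to 0.13. For the inhibitors, Trem2 was 0.017 in V3.0 libraries only. In V3.1 libraries only, Tyrobp was 0.030, Fcgr1 -0.051, Fcgr2b -0.0069, Fcgr3 -0.0091 and Fcgr4 -0.00017. With 1 DNC-NONE mouse left out, Fcgr1 ran from -0.028 to 0.081 and Fcgr2b from -0.060 to 0.066. For border macrophages against microglia, Fcer1g was -0.083 without a filter, -0.51 in V3.1 libraries only, -0.080 without the V3.0 library of mouse 3 and -0.067 to 0.16 with 1 mouse left out. Fcgr2b was -0.15 in V3.1 libraries only and -0.12 to 0.58 with 1 mouse left out. Fcgr4 was 0.29 in V3.1 libraries only, 0.12 with at least 500 genes per cell and 2.35 with the broader gate, where Tyrobp was 0.34. With library totals, Fcer1g was -0.26 and Plcg2 -0.55 for neutrophils against microglia, and Fcer1g -0.46 and Fcgr3 -0.83 against border macrophages. Fcgr3 was -0.085 there with the broader gate. In interferon-gated microglia, Fcer1g was 0.0079 with DESeq2 and 0.011 with RLE factors.

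The replicate block changed no member's call other than that of Fcgr4 in interferon-gated microglia. Border macrophage comparisons under stricter gates were not run, since 2 cells remained, nor were interferon fits within a kit or the disease-marker fit, with under 20 gated cells in some mouse. The 24 border macrophages, and the low UMIs of Fcgr4 and Syk in them, limit the precision.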
